A study of Mus musculus with 40 samples.

Results

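The genes described here are the Rab GTPases, the largest branch of the small GTPase family. They were taken by symbol, as every gene named Rab followed by a number and at most 1 letter and 1 further digit, which gave 58 of the 22417 mouse genes in the deposited table. Rab proteins are molecular switches that mark membranes: bound to GTP they recruit tethers, motors and fusion factors to one organelle, and bound to GDP they are pulled back into the cytosol. They have no signal sequence. They are made as soluble proteins, are handed by an escort protein (Chm or Chml) to Rab geranylgeranyl transferase (Rabggta and Rabggtb), and reach membranes only after lipid has been attached near their C terminus.

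The cells were mouse embryonic fibroblasts without GADD34 (GADD34-/-), the stress-induced phosphatase subunit, encoded by Ppp1r15a, that removes the phosphate from translation factor eIF2 alpha. They were left untreated or kept for 0.5, 1, 2 or 4 h in 1 uM thapsigargin (Tg), which empties the calcium store of the ER and causes ER stress. All cells were given 180 uM cycloheximide for 30 s, the cytosol was released with digitonin, and the remaining ER fraction was extracted with dodecyl maltoside. Each fraction gave ribosome footprints (made with micrococcal nuclease) and mRNA libraries, with 2 replicates in each of 20 groups. No wild-type cells were compared, so every value below belongs to GADD34-/- cells. The labels do not say whether replicates are separate cultures or whether the line is 1 clone, so a p-value here speaks only of the spread among the deposited samples, which may be technical.

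Values are the authors' RPKM, reads scaled by gene length and by library size, and they also carry a weight for each fraction and time. A blank means that a library does not list the gene, which in the footprint libraries allows up to 3 reads. The 10 cytosol footprint libraries held 122249 to 5389157 reads on listed genes and the 9 ER footprint libraries held 56868 to 9607341. The column of ER footprints at 0.5 h, replicate 2, is empty. Of 10 cytosol mRNA libraries the deepest held 315689 reads, and the shallowest of the 10 ER mRNA libraries held 1502 reads and listed no Rab gene. Ppp1r15a was listed in 1 ER and 1 cytosol footprint library, at 2.89 and 19.3 RPKM, and in no mRNA library. The labels do not say which piece of the gene is missing. Of the 12 fibroblast markers, 9 were listed in all 4 untreated footprint libraries, while Lum and Thy1 were listed in none. Macrophage, epithelial and endothelial marker lists summed to at most 1.73, 0.413 and 0.318 RPKM. Of 6 muscle and neural markers 2 were listed in every untreated footprint library and 3, Des, Myod1 and Myog, in none. Their sum in those libraries was 99.5 to 158 RPKM, and their part in the Rab results was not tested. The fractions were checked with proteins made at the ER against proteins made in the cytosol. The ratio of their summed RPKM in ER footprints was 1.06 and 1.46 in the untreated replicates and 0.638 to 0.807 after Tg. In cytosol footprints it was 0.0665 and 0.00137 in the untreated replicates and 0.105 to 0.222 after Tg, except for 0.567 in replicate 2 at 0.5 h, a library that stands apart. The part of these differences in the Rab results was not tested.

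Of the 58 Rab genes, 49 were listed in at least 1 library, 3 of them (Rab26, Rab42 and Rab44) in just 1, and 9 were listed in none. The 9 were Rab3c, Rab9b, Rab17, Rab19, Rab25, Rab33a, Rab37, Rab39 and Rab40b. In untreated cells 24 Rab genes were listed in all 4 footprint libraries, and 28 could be tested in at least 1 comparison, since a test needed a value in every library compared. A gene that fell below 4 reads in a shallow library could therefore not be tested, so the tested Rab genes are those that stayed listed. No Rab gene had the same values as another gene. How reads that match several paralogs (Rab1 and Rab1b, the Rab5, Rab8 and Rab11 isoforms) were assigned is not given in the sources used here, so the split between paralogs is uncertain.

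In untreated cells the footprints were spread over Rab genes of every membrane step. Rab7, the GTPase of late endosomes and lysosomes, had the highest mean over both fractions, at 92.1 ± 37.0 RPKM in ER and 307 ± 27.2 in cytosol libraries (SD, n = 2 each). Rab1, which acts between the ER and the Golgi, followed at 91.0 ± 31.97 and 234 ± 109.9. Rab10, an exocytic GTPase also found on the ER, stood at 126 ± 7.3 and 131 ± 27.9. Then came Rab5c of early endosomes at 46.8 ± 8.31 and 190.2 ± 0.724, Rab18 of the ER and lipid droplets at 55.0 ± 10.8 and 182 ± 76.8, and Rab11a of recycling endosomes at 50.7 ± 14.5 and 155 ± 53.1. Over both fractions the means of these 6 ran from 199 RPKM for Rab7 to 103 for Rab11a, but the order depends on the fraction. Rab10 was above both Rab7 and Rab1 in each ER library and below both in each cytosol library, whereas Rab7 and Rab1 overlapped in the ER, Rab5c and Rab18 overlapped in both fractions, and so did Rab18 and Rab11a. The other 18 genes had means from 8.97 RPKM for Rab4a to 73.7 for Rab2a.

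**Figure D1:**
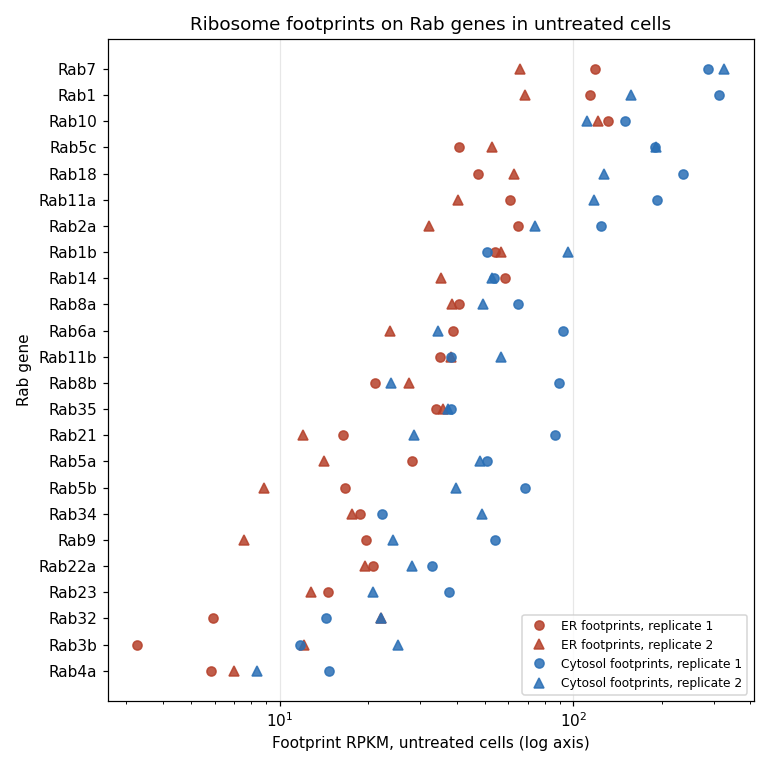
Footprint RPKM of the 24 Rab genes listed in all 4 untreated footprint libraries, on a log axis, with 1 point per library (red, ER; blue, cytosol; circles, replicate 1; triangles, replicate 2). The highest cytosol points are those of Rab7 and Rab1 and the highest ER points those of Rab10, and for Rab5c, Rab5b and Rab11a both cytosol points lie to the right of both ER points.

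The comparison of ER with cytosol asks in which fraction footprints on Rab genes had the higher RPKM, a value that rests on the authors' scaling. In untreated cells 3 of 24 tested Rab genes differed, all lower in the ER, beside 16.7% of all 5786 genes tested (limma on log2(RPKM + 1), Benjamini-Hochberg adjusted p under 0.05). Those 3 were the endosomal Rab5c, Rab5b and Rab11a. All 24 differences were below 0, with a median of -0.95 on the log2 scale, but so were 84.2% of all genes, whose median was -0.79. With the libraries centred on their medians or rescaled to their reads, 21 and 22 of the 24 were below 0.

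Rab5c had 40.9 and 52.7 RPKM in ER libraries against 189.7 and 191 in cytosol libraries. Its difference was -2.01 on the log2 scale (SE 0.46, limma adjusted p = 0.0124). For Rab5b, another early endosome isoform, the ER values were 16.7 and 8.82 RPKM and the cytosol values 68.5 and 39.9, a difference of -2.02 (SE 0.50, limma adjusted p = 0.0248). Rab11a had 60.9 and 40.4 RPKM in the ER against 193 and 118 in the cytosol, -1.58 (SE 0.47, limma adjusted p = 0.0365). In all 3 the fractions did not overlap. The third isoform of early endosomes, Rab5a, had 28.2 and 14.1 RPKM in ER libraries against 50.6 and 48.0 in cytosol libraries, -1.26 (limma adjusted p = 0.0836). Without any 1 of the 4 libraries, 0 or 1 Rab gene passed, and with the libraries centred on their medians Rab11a did not (limma adjusted p = 0.0645), while Rab5c and Rab5b did.

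Other low ratios did not pass the test. Rab7 was at -1.78 (SE 0.68, limma adjusted p = 0.081), Rab21, which acts on endosomes that carry integrins, at -1.76 (limma adjusted p = 0.0616) and Rab18 at -1.65 (limma adjusted p = 0.0517). At the other end stood Rab10 at -0.03 (95% interval -1.05 to 0.99), Rab35 of the plasma membrane and recycling endosomes at -0.11 (interval -1.48 to 1.26) and Rab14 of the Golgi and endosomes at -0.22 (interval -1.17 to 0.73), which had about equal RPKM in both fractions. Under median centring these 3 differences became positive. By role, the median difference was -0.71 for the 4 exocytic genes, -0.99 for the 10 of early and recycling endosomes, -1.05 for the 5 of the ER and Golgi and -1.49 for the 3 of late endosomes and lysosomes.

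Other small GTPases gave a like picture. The median was -1.12 for 17 other prenylated GTPases, among which Cdc42 was lower in the ER, and -0.82 for 18 that are not prenylated, of which Ran and Arf1 were lower. No difference between the lists was tested. The calls of Cdc42 and Arf1 were lost without any 1 of the 4 libraries, and that of Ran without ER replicate 2 (limma adjusted p = 0.0518).

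During Tg no Rab gene differed between the fractions past limma's test, at 0.5, 1, 2 or 4 h, where 16, 11, 8 and 7 were tested and 5, 3, 2 and 0 had an unadjusted p under 0.05. Of all genes 0%, 1.7%, 0% and 0% were called at those times. The ER arm at 0.5 h is 1 library, here and in each 0.5 h value below, and is assumed to vary like the other groups. The Rab medians were -0.94, -0.83, -0.73 and -0.31, and those of all genes -0.76, -0.54, -0.25 and 0.05. The ER-protein markers were higher in the Tg cytosol libraries, as given above, and their part in these medians was not tested. Of the Rab differences 15, 10, 8 and 5 were below 0, and 8, 6, 5 and 5 after median centring. At 1 h Rab5c was closest to the threshold, at -1.81 (limma adjusted p = 0.0546).

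The change of the ER-to-cytosol ratio was tested directly and no Rab gene passed at any time, with 0 of 16, 11, 8 and 7 also at an unadjusted limma p under 0.05, beside 1.36%, 2.46%, 1.79% and 1.36% of all genes called. At 4 h, 6 of 7 tested Rab genes had a positive change. The largest were Rab1 at 1.47 (95% interval -0.76 to 3.70), Rab18 at 1.34 (interval -0.30 to 2.99) and Rab11a at 1.34 (interval -0.03 to 2.71). The median of the 7 was 1.10 and that of all genes 0.75, and 79% of all genes had a positive change. Each of these intervals includes 0.

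The comparison of Tg with untreated cells asks how the footprint RPKM of Rab genes changed with time. RPKM is a scaled value, which gives neither an absolute amount of translation nor ribosomes per mRNA. In the cytosol most tested Rab genes were below their untreated level at 1, 2 and 4 h: 20 of 27, 12 of 17 and 9 of 13. Most of all genes were too, since 42.6%, 44.9% and 45.4% of them had a positive change. The median log2 change of the tested Rab genes was -0.20 at 0.5 h, -0.61 at 1 h, -0.72 at 2 h and -0.55 at 4 h, and that of all genes was -0.03, -0.15, -0.14 and -0.12. Like medians were found at 2 and 4 h for other prenylated small GTPases (-0.70 and -0.85) and for those that are not prenylated (-0.54 and -0.67), and none of either list passed. No Rab gene was called at 0.5 h (of 23; 2.66% of all genes), 1 h (of 27; 1.2%) or 4 h (of 13; 7.87%), with 3, 7 and 3 at an unadjusted limma p under 0.05. At 2 h Rab8a rose and Rab5c fell, 2 of 17, beside 12.1% of all genes. Without the 0.5 h library that stands apart, the 0.5 h median of 27 tested Rab genes was 0.07 and none passed. Without any 1 of the 4 libraries of the 2 h comparison, neither Rab8a nor Rab5c passed, and the log2 changes stayed between 1.32 and 2.08 for Rab8a and between -2.20 and -1.46 for Rab5c.

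**Figure D2:**
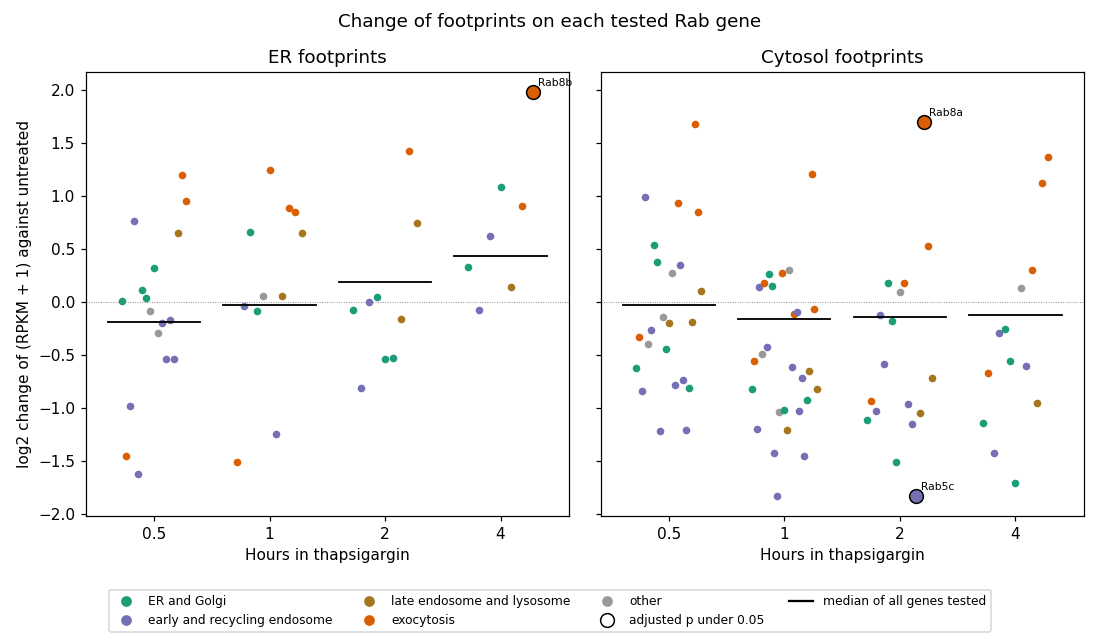
Log2 change of (RPKM + 1) against untreated cells for every Rab gene tested at each time in ER (left) and cytosol (right) footprints, coloured by role. Large points with a black rim passed the test and black bars give the median of all genes tested. In the cytosol at 1, 2 and 4 h most Rab points lie under the bar, and Rab8a and Rab5c are the called genes at 2 h.

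As a share of all listed reads, the family went from 0.287% and 0.225% in the untreated cytosol replicates to 0.177% and 0.135% at 4 h, with exact 95% binomial intervals of 0.267 to 0.308, 0.221 to 0.229, 0.154 to 0.202 and 0.126 to 0.145. All 8 Tg cytosol libraries except 1 were below both untreated ones. The exception was replicate 1 at 0.5 h, at 0.231%. In the ER the shares were 0.153% and 0.125% untreated and 0.107% and 0.124% at 4 h. Both 4 h values were below both untreated ones, but 0.125% (interval 0.115 to 0.137) and 0.124% (interval 0.106 to 0.145) lie within each other's counting interval. Because shallow libraries list fewer Rab genes, the 12 listed in all 10 cytosol libraries were also summed. Their share was 0.189% and 0.142% untreated and 0.157% and 0.0981% at 4 h, so the replicates of the groups overlapped. These 12 are the genes that stayed listed, and the part of that choice in the overlap was not tested. It leaves out Rab5c, blank in replicate 1 at 4 h, where 28.7 reads would have stood at the untreated share. It also leaves out Rab4b, blank in the untreated replicate 1. Intervals cover counting error only. In bulk samples, less RNA per cell and fewer ribosomes on an equal amount of RNA add up to the same footprint share, and fewer cells of a type and less RNA per cell cannot be told apart.

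**Figure D3:**
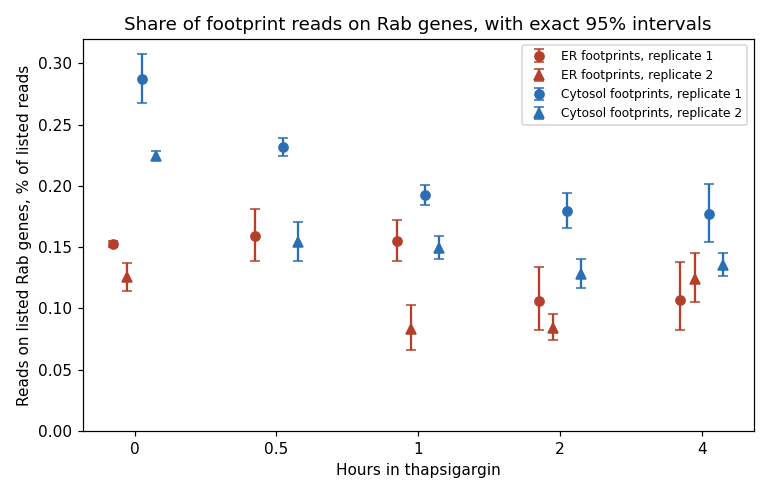
Reads on listed Rab genes as a percentage of all listed reads in each footprint library, against hours in thapsigargin, with exact 95% intervals. The cytosol share was 0.287% and 0.225% untreated and 0.177% and 0.135% at 4 h, and the ER share was lower in untreated cells.

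The Rab genes called higher during Tg were the exocytic Rab8a, in the cytosol at 2 h, and Rab8b, in the ER at 4 h. Rab8a drives transport from the Golgi and recycling membranes to the plasma membrane and to cilia. Its cytosol footprints were 64.9 and 49.2 RPKM untreated, 226 and 148 at 0.5 h, 137 and 127 at 1 h, 242 and 143 at 2 h, and 140.2 and 109.6 at 4 h. All 8 Tg libraries lay above both untreated ones. The log2 change was 1.70 at 2 h (SE 0.44, limma adjusted p = 0.0366), and 1.68, 1.21 and 1.12 at 0.5, 1 and 4 h, where it did not pass (limma adjusted p = 0.0793, 0.224 and 0.132).

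In the ER Rab8a had 40.7 and 38.5 RPKM untreated and 91.9 at 0.5 h. It had 97.1 and 56.3 at 1 h, 174 and 66.6 at 2 h, and 69.8 and 80.3 at 4 h. Again all 7 Tg libraries were above both untreated ones, although the change at 2 h, 1.42 (SE 0.49, limma adjusted p = 0.0664), did not pass. The untreated ER values rest on 530 and 21 reads and those at 4 h on 6 and 14. Rab8a mRNA could not be tested. In replicate 1 of the cytosol it had 42.3 RPKM untreated and 66.5, 30.7, 24.1 and 23.2 at the 4 Tg times, lower than untreated from 1 h on. In replicate 1 of the ER it had 17.3 untreated and 38.4, 28.9, 22.5 and 53.0 during Tg, all higher than untreated, on 4 to 11 reads. Replicate 2 did not list Rab8a mRNA untreated in either fraction, so it gives no change. It had 84.3, 13.2 and 14.3 RPKM in the cytosol at 0.5, 2 and 4 h, and 7.41, 53.4 and 72.8 in the ER at 1, 2 and 4 h.

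Rab8b, its close paralog with a like role in exocytosis, was the one Rab gene called in the ER. It had 21.1 and 27.5 RPKM untreated, 47.8 at 0.5 h, 69.4 and 28.2 at 1 h, a blank and 27.6 at 2 h, and 93.0 and 103 at 4 h. All 6 listed Tg values in the ER were above both untreated ones, with replicate 2 at 1 and 2 h close to them. The 4 h rise was 1.98 on the log2 scale (SE 0.47, limma adjusted p = 0.00834), 1 of 7 Rab genes tested, beside 28.7% of all genes called and a median of 0.44 for all genes. Without ER replicate 1 of the untreated cells or of 4 h it no longer passed (limma adjusted p = 0.0506 and 0.0588). The 4 h values rest on 8 and 18 reads.

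In the cytosol the Rab8b replicates differed from the start, with 89.7 and 23.9 RPKM untreated and 159 and 93.2 at 4 h. Its 4 h change of 1.37 (SE 0.81, limma adjusted p = 0.302) did not pass. Replicate 1 of the cytosol mRNA listed Rab8b at 42.3 RPKM untreated and at 57.7, 44.4, 33.2 and 30.9 during Tg. In ER mRNA, replicate 1 had 21.7 RPKM untreated, 43.2 at 0.5 h, 28.9 at 1 h, a blank at 2 h and 91.6 at 4 h, on 5, 9, 7 and 19 reads, so at 4 h the Rab8b mRNA value was also above its untreated one.

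Rab10, which acts with the Rab8 proteins in exocytosis, had lower values during Tg. Its ER footprints were 132 and 121 RPKM untreated, 45.6 at 0.5 h, 66.1 and 29.2 at 1 h, a blank and 23.8 at 2 h, and a blank and 89.1 at 4 h. Every listed Tg value in the ER was below both untreated ones. The log2 change was -1.45 at 0.5 h and -1.50 at 1 h (SE 0.48, limma adjusted p = 0.0585), neither past the test. At the untreated share, the blank libraries of 2 and 4 h would have held 11.4 and 9.81 Rab10 reads. A blank allows 3, which is 28.5 and 36.1 RPKM there. In the cytosol Rab10 had 150.4 and 111 RPKM untreated and 98.9 and 66.7 at 4 h. Rab3b, a GTPase of regulated secretion, had 11.7 and 25.4 RPKM in the untreated cytosol and 24.1 and 19.4 at 4 h, which overlapped (log2 change 0.31, SE 0.53). Its ER change at 1 h was 1.25 (limma adjusted p = 0.143).

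**Figure D4:**
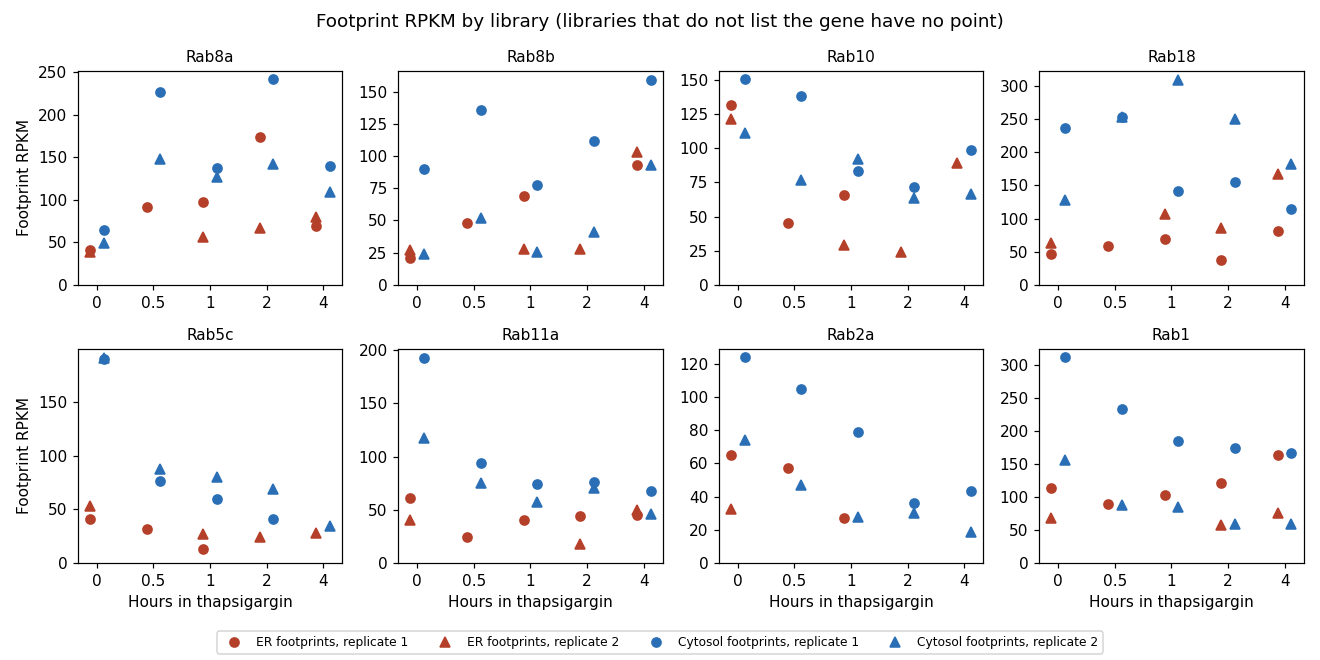
Footprint RPKM of 8 Rab genes in every library that lists them, against hours in thapsigargin (red, ER; blue, cytosol; circles, replicate 1; triangles, replicate 2). Rab8a points rise above the untreated ones in both fractions, and the cytosol points of Rab5c, Rab11a and Rab2a lie below the untreated ones at 1, 2 and 4 h except for Rab2a in replicate 1 at 1 h.

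Rab5 proteins direct the fusion of early endosomes. Rab5c cytosol footprints were 189.7 and 191 RPKM untreated, 76.4 and 87.7 at 0.5 h, 59.5 and 79.9 at 1 h, 40.7 and 68.4 at 2 h, and a blank and 34.2 at 4 h. All 7 listed Tg values were below both untreated ones. At 2 h it fell by 1.83 on the log2 scale (SE 0.43, limma adjusted p = 0.0311). The changes at 0.5 and 1 h, -1.21 and -1.45, did not pass (limma adjusted p = 0.187 and 0.156). At 4 h the blank library would have held 28.7 reads at the untreated share, and a blank allows 18.3 RPKM. The ER values were 40.9 and 52.7 RPKM untreated, 31.7 at 0.5 h, 13.3 and 27.001 at 1 h, a blank and 24.2 at 2 h, and a blank and 27.5 at 4 h, again all below both untreated ones (-1.25 at 1 h, limma adjusted p = 0.0978).

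Its paralogs had the same order in the cytosol. Rab5a had 50.6 and 48.0 RPKM untreated, 33.9 and 25.2 at 0.5 h, 29.5 and 19.05 at 1 h, 28.1 and 22.1 at 2 h, and a blank and 22.4 at 4 h. Rab5b had 68.5 and 39.9 untreated, then 25.6 and a blank, 30.3 and 32.7, 17.9 and 29.5, and a blank and 17.2. All 7 and all 6 listed Tg values were below both untreated ones. None of these changes passed: Rab5a was at -1.02 at 1 h (limma adjusted p = 0.303) and Rab5b at -1.15 at 2 h (limma adjusted p = 0.143).

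Rab11a, which returns endocytosed cargo to the plasma membrane, had 193 and 118 RPKM in the untreated cytosol, 93.6 and 75.2 at 0.5 h, 74.6 and 56.9 at 1 h, 76.4 and 70.9 at 2 h, and 67.2 and 46.0 at 4 h. All 8 Tg values were below both untreated ones. The log2 changes at 1, 2 and 4 h were -1.20, -1.02 and -1.42, and the last came closest to the threshold (SE 0.42, limma adjusted p = 0.0671). In the ER Rab11a had 60.9 and 40.4 untreated and 44.6 and 49.5 at 4 h, which overlapped (-0.08, SE 0.48). Rab11b, its paralog, showed no such order: its cytosol values were 38.2 and 56.8 untreated, 81.4 and 108 at 0.5 h, and 42.4 and 33.8 at 4 h (0.99 at 0.5 h, limma adjusted p = 0.247). The difference between the paralogs was not tested.

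Rab14 had 58.6 and 35.3 RPKM in the untreated ER, 14.2 at 0.5 h, 18.7 and a blank at 1 h, a blank and 15.5 at 2 h, and a blank and 22.1 at 4 h. All 4 listed Tg values were below both untreated ones, with -1.62 at 0.5 h (limma adjusted p = 0.236). Among other endosomal genes at 1 h in the cytosol, Rab22a stood at -1.82 (limma adjusted p = 0.144) and Rab21 at -1.42 (limma adjusted p = 0.31). Of the 10 early and recycling endosome genes tested there 9 had a negative change, with a median of -0.87, and at 2 h all 6 tested did, with a median of -0.99. Of those 16 tests 1 passed, that of Rab5c at 2 h. Of all genes 42.6% and 44.9% had a positive change at 1 and 2 h, and 1.2% and 12.1% were called. Negative medians were not particular to endosomal recycling. The late endosome and lysosome genes had -0.82 and -0.88, and those of the ER and Golgi -0.82 and -0.65. Exocytic genes had 0.06 and 0.35, and the remaining ones -0.49 and 0.10.

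For the GTPases of the ER and Golgi no change passed in either fraction at 0.5, 1, 2 or 4 h, but few were tested. In the ER 4, 2, 4 and 2 were tested at those times, beside 0.225%, 13.1%, 17% and 28.7% of all genes called. In the cytosol 5, 5, 4 and 4 were tested, beside 2.66%, 1.2%, 12.1% and 7.87% of all genes called. Rab1 had 312 and 157 RPKM in the untreated cytosol, 234 and 88.0 at 0.5 h, 185 and 84.2 at 1 h, 174 and 59.2 at 2 h, and 167 and 59.5 at 4 h. Each replicate was lower at each Tg time than untreated, but replicate 1 stayed above the untreated replicate 2 throughout, so the groups overlapped (-1.14 at 4 h, SE 0.76, limma adjusted p = 0.356). Its ER values were 114 and 68.4 untreated and 164 and 75.3 at 4 h (0.33, SE 0.51). Rab1b, which shares its role, had 50.9 and 95.8 in the cytosol untreated and 72.2 and 31.05 at 4 h.

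Rab2a, which acts in traffic between the Golgi and the ER, had 124 and 73.9 RPKM in the untreated cytosol, 105 and 46.8 at 0.5 h, 78.6 and 27.6 at 1 h, 36.3 and 29.9 at 2 h, and 43.6 and 18.7 at 4 h. The 4 values at 2 and 4 h were below both untreated ones. The log2 changes at those times were -1.51 and -1.70 (SE 0.64 both, limma adjusted p = 0.137 and 0.123). Rab6a of the Golgi had 92.3 and 34.7 RPKM untreated and was blank in both cytosol libraries at 4 h, where 13.5 and 24.2 reads would have stood at the untreated share. The blanks allow 19.03 and 4.09 RPKM.

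Rab18, which acts at the ER and at lipid droplets, had cytosol values of 236 and 128 RPKM untreated, 253 and 254 at 0.5 h, 142 and 309.5 at 1 h, 155 and 251 at 2 h, and 115 and 183 at 4 h. Tg and untreated values overlapped at 1, 2 and 4 h, and both 0.5 h values lay above. In the ER it had 47.4 and 62.6 untreated, 59.1 at 0.5 h, 69.7 and 108 at 1 h, 36.9 and 85.4 at 2 h, and 81.8 and 167 at 4 h. Both 4 h values were above both untreated ones, a difference of 1.09 that missed the threshold (SE 0.50, limma adjusted p = 0.121).

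The replicates of Rab7 went apart. In the cytosol replicate 1 had 288 RPKM untreated, 424 at 0.5 h and 249 at 4 h, whereas replicate 2 had 326, 169.9 and 100.05. In the ER it had 118 and 65.9 untreated and 105 and 91.8 at 4 h (0.15, SE 0.46), which overlapped. Rab32 of lysosome-related organelles was at -1.21 in the cytosol at 1 h (limma adjusted p = 0.288).

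In the ER as a whole the tested Rab genes had median changes of -0.09, 0.06, -0.08 and 0.63 at 0.5, 1, 2 and 4 h, beside -0.19, -0.03, 0.19 and 0.44 for all genes. None of 17, 11 and 9 passed at 0.5, 1 and 2 h, where 2, 3 and 1 had an unadjusted limma p under 0.05 and 0.225%, 13.1% and 17% of all genes were called. Only 4 Rab genes were listed in all 9 ER footprint libraries: Rab7, Rab8a, Rab11b and Rab18. Their summed share of reads was 0.0330% and 0.0285% untreated and 0.0545% and 0.0518% at 4 h. These 4 are the genes that stayed listed, and the share of all listed Rab genes during Tg ran from 0.0831% to 0.159%, against 0.153% and 0.125% untreated.

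The mRNA libraries were too shallow for most Rab genes. Averaged over the Tg times of 1, 2 and 4 h, 2 Rab genes could be tested in ER mRNA and 1 in cytosol mRNA. Rab10 in the ER changed by 0.22 (SE 0.53) and Rab1 by -0.77 in the ER (SE 0.69) and -0.40 in the cytosol (SE 0.69), none past limma's test and none with an unadjusted p under 0.05, beside 0% of all genes called in both. In the ER against the cytosol no Rab gene could be tested. That comparison needed a value in every mRNA library, among them ER replicate 2 at 0.5 h, which listed no Rab gene. The absence of Rab genes there was thus fixed by that library. Only 272 genes were tested, of which 8.09% passed. Translational efficiency, the change in footprints minus that in mRNA, could be tested for Rab1 in the cytosol only: -0.63 (SE 0.99, limma adjusted p = 0.959), beside 0.078% of all genes. For the ER no Rab gene was testable and 0% of all genes passed. A change of footprints on a Rab gene can therefore not be told apart here from a change of its mRNA.

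An enzyme that prenylates Rab proteins changed by more than any tested Rab gene. Rabggtb, the catalytic beta subunit of Rab geranylgeranyl transferase, had 11.6 and 13.04 RPKM in the untreated ER, 99.4 at 0.5 h, 88.9 and 156 at 1 h, 170.0 and 352 at 2 h, and 240.1 and 253 at 4 h. In the cytosol it had 30.8 and 25.5 untreated, 159.8 and 202 at 0.5 h, 142 and 315 at 1 h, 289 and 425 at 2 h, and 182 and 273 at 4 h. No Tg value came near an untreated one in either fraction.

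Rabggtb rose in the ER by 3.16 at 1 h, 4.21 at 2 h and 4.22 at 4 h on the log2 scale (SE 0.46, 0.46 and 0.45, limma adjusted p = 0.000815, 0.00012 and 3.58e-05). In the cytosol it rose by 2.64, 2.87, 3.60 and 2.95 at 0.5, 1, 2 and 4 h (limma adjusted p = 0.0294, 0.0297, 0.00525 and 0.0125). At 0.5 h, with 1 ER library, the change of 2.92 did not pass. The ER calls held without any 1 library. Those in the cytosol were each lost without 2 or 3 of the 4 libraries, among them the untreated replicate 2 at 0.5, 1 and 4 h (limma adjusted p = 0.186, 0.19 and 0.0844) and replicate 1 of 2 h (0.0522). Median centring also ended the calls at 0.5 and 1 h (limma adjusted p = 0.0596 and 0.0516). Untreated mRNA listed Rabggtb only in replicate 2, at 16.2 RPKM in the ER and 25.6 in the cytosol, on 2 reads each. At 4 h only replicate 1 listed it, at 37.8 and 11.01 RPKM, on 11 and 6 reads. No replicate held both times, so no change at 4 h can be read from these values. At earlier times replicate 2 listed it on 3 reads at 1 h and 1 at 2 h in the ER. Those libraries held 64509 to 84315 reads, untreated included. In the cytosol it had 3 reads at 0.5 h and 2 at 2 h, in libraries of 163233 and 208434 reads against 48218 untreated. Rabggtb mRNA was not tested. Its ER-to-cytosol difference passed in no comparison.

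**Figure D5:**
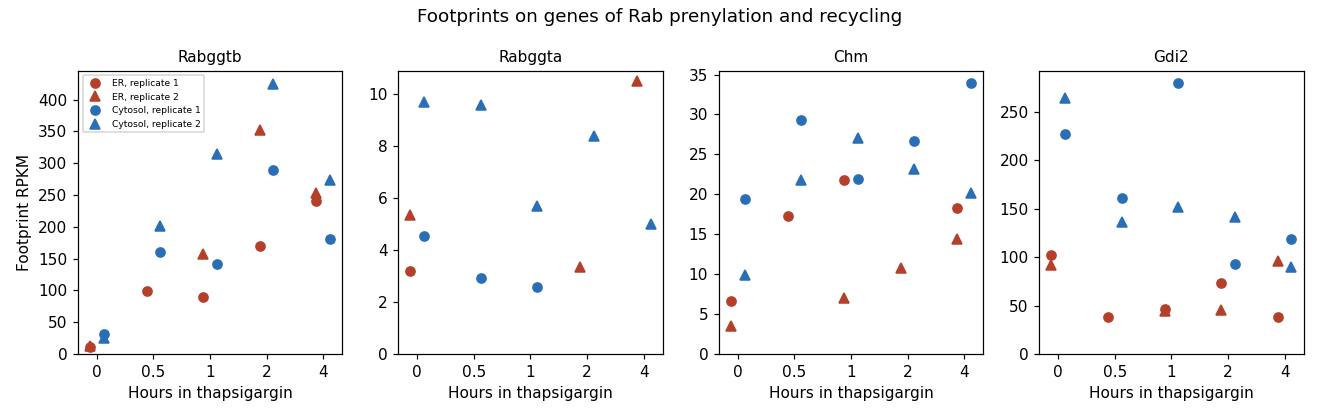
Footprint RPKM of Rabggtb, Rabggta, Chm and Gdi2 in every library that lists them, against hours in thapsigargin (red, ER; blue, cytosol; circles, replicate 1; triangles, replicate 2). All Tg points of Rabggtb lie at or above 88.9 RPKM and its 4 untreated points at or below 30.8, while its partner Rabggta stays at or below 10.5.

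Its partners did not follow to that degree. Rabggta, the alpha subunit, was listed at 3.20 and 5.36 RPKM in untreated ER libraries and at 10.5 in 1 library of 4 h, and had 4.52 and 9.70 in the cytosol untreated and 5.01 in 1 library of 4 h. Chm, the escort protein that presents Rab proteins to the enzyme, rose in the ER at 4 h by 1.57 (SE 0.53, limma adjusted p = 0.0435), from 6.59 and 3.44 RPKM to 18.2 and 14.4, a call lost without any 1 of the 4 libraries. In the cytosol all 8 Tg values of Chm, 20.2 to 33.95 RPKM, were above both untreated ones, 19.4 and 9.87, without passing. Its homolog Chml was listed in 3 footprint libraries, at most at 1.41 RPKM. Rabif, a guanine nucleotide release factor of exocytic Rab proteins, rose in the ER at 1 h by 1.48 (SE 0.44, limma adjusted p = 0.0463), from 13.5 and 18.5 to 37.3 and 56.8, with the same limit. Gdi2, which carries GDP-bound Rab proteins through the cytosol, did not pass in either fraction against untreated cells. It had 228 and 264 RPKM in the untreated cytosol and 119 and 90.0 at 4 h. At 1 h Gdi2 was lower in the ER than in the cytosol (-2.16, SE 0.46, limma adjusted p = 0.0446). Median centring ended that call (limma adjusted p = 0.282), and so did leaving out ER replicate 1 or 2 or cytosol replicate 1 of 1 h. Of the 11 genes of prenylation and recycling, 2 of 8 tested rose in the ER at 1 h, 1 of 5 at 2 h and 2 of 6 at 4 h, and Rabggtb alone rose in the cytosol, of 7, 8, 7 and 7 tested at the 4 times. None fell. Of all genes 6.5%, 11.3% and 22% rose in the ER at 1, 2 and 4 h, and 2.63%, 1.17%, 5.91% and 4.32% in the cytosol.

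In the ER at 4 h, of 11 tested exchange factors, which load Rab proteins with GTP, 4 rose and none fell, with a median of 1.05 beside 0.44 for all genes, of which 22% rose and 6.77% fell. Among them were Rin1, which acts on Rab5, and Trappc5 and Trappc13 of the TRAPP complexes. Rin1 went from 4.09 and 5.48 RPKM to 28.5 and 26.5 (2.31, SE 0.44, limma adjusted p = 0.00208). Of 9 tested effectors 3 rose and none fell, beside the same 22% and 6.77%: Micall1, Micall2 and Optn, which are known to bind Rab8 proteins. Optn, an autophagy receptor that binds Rab8, went from 3.25 and 3.25 RPKM to 20.7 and 20.4 (2.34, SE 0.44, limma adjusted p = 0.00279). The 4 h calls of Rin1 and Optn held without any 1 library, whereas those of Trappc5, Trappc13, Micall1 and Micall2 were each lost without 2, 3 or all 4 of the libraries compared.

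At earlier times Rin1 rose at 2 h (2.04, limma adjusted p = 0.00922), and Uso1, a tether recruited by Rab1, fell at 1 h (-1.79, limma adjusted p = 0.0187). In the cytosol no exchange factor passed at any time, beside 2.66%, 1.2%, 12.1% and 7.87% of all genes called at 0.5, 1, 2 and 4 h. Among effectors 1 of 17 fell there at 2 h, beside 6.2% of all genes. It was Myo5a, the motor that Rab proteins link to vesicles (-2.80, SE 0.64, limma adjusted p = 0.026). The calls of Uso1 and Myo5a were lost without any 1 of their 4 libraries, and that of Rin1 at 2 h without either untreated library. No GTPase-activating protein passed in any footprint comparison, where at most 14 were tested, beside 0% to 28.7% of all genes called.

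Among other small GTPases at 4 h in the ER, 3 of 9 prenylated ones rose, Rnd1 (2.69), Rhob (1.90) and Rnd3 (1.25), and 2 of 10 that are not prenylated, Arf2 (2.11) and Arl2 (1.78), while 1 of 7 tested Rab genes rose, beside 22% of all genes. All 5 passed limma's test at an adjusted p between 0.00603 and 0.0365, and the shares were not compared by a test. Rnd3 did not pass without any 1 of the 4 libraries, and each of the other 4 was lost without 1 or 2 of them, namely the 4 h replicate 1 for Arf2, Arl2 and Rhob, the 4 h replicate 2 for Rnd1, and the untreated replicate 1 for Rhob and Rnd1. Earlier, Rnd3 rose at 1 and 2 h (1.47 and 1.76) and Rhob and Arf2 at 2 h (1.75 and 1.79). Arl1, a GTPase of the trans-Golgi that is not prenylated, fell at 1 h (-1.85, SE 0.46, limma adjusted p = 0.0229) and at 2 h (-2.28, SE 0.47, limma adjusted p = 0.00761). Each of these earlier calls was lost without either untreated library. Of all genes 6.61% fell at 1 h and 5.69% at 2 h.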

How the data were processed

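The deposited values are the authors' RPKM for 22417 mouse RefSeq genes in 40 samples, of which 39 hold values; a blank is a gene not listed. Per the submitters' processing notes the tools include Bowtie and the build hg19, a human build, so no coordinates are given; versions are not given in the sources used here. In these deposited RPKM values 99.3% of 236322 listed values were whole multiples of 1 read (relative tolerance 1e-07), which gave the read numbers; the lowest listed value was 4 reads in footprints and in mRNA replicate 1, and 1 read in mRNA replicate 2. Values also carry a weight for each fraction and time, so levels across fractions depend on the authors' scaling.

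Groups follow the labels. Genes whose mean reached 1 RPKM and that every library compared lists were tested on log2(RPKM + 1), a scale that understates changes of low genes, with limma 3.58.1 in R 4.3.3 (mean-variance trend, Benjamini-Hochberg over all genes tested, threshold 0.05). Each fold change is on that log2 scale. Footprints of each fraction were fitted over all its times, ER against cytosol over both fractions, and mRNA over both fractions, as the mean of 1, 2 and 4 h. Scripts were tested on simulated data.

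The members and lists were chosen with earlier results of these data known. Named are all Rab genes past the test, the 3 largest rises and falls at 4 h in each fraction, the 6 highest untreated levels, the 3 highest and 3 lowest ER-to-cytosol ratios, and 14 by known role; of other lists, the genes past the test, apart from a few that are not reported here. Rab21, Rab22a, Rab32, Rabggta and Chml were added after their values were seen. Alternatives were a pseudocount of 0.1, a filter at 10 RPKM or none, blanks read as 0, median centring, rescaling to recovered reads, the replicate number as a block and leaving out each library. Read intervals are exact (Clopper-Pearson, 95%).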

Additional observations from a re-analysis of the deposited data

How the results depend on the processing

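Of 154 counts of called Rab genes and family levels under other settings 134 stayed within 1.5 times or the replicate spread. With blanks read as 0, 4 Rab genes passed in ER footprints at each of 0.5, 1, 2 and 4 h, all lower, 1 in cytosol mRNA, and 0 in the cytosol at 2 h and in untreated ER against cytosol, where a blank can hold up to 3 reads. Rescaling to reads gave 1 in the ER at 2 h. A filter at 10 RPKM gave 5 in untreated ER against cytosol and 1 at 1 h. The replicate numbers are not stated to pair samples, and same-numbered deviations correlated at 0.18 to 0.38 in ER and -0.19 to 0.63 in cytosol footprints. With the replicate block 3, 1 and 2 passed in the ER at 1, 2 and 4 h, 1, 5 and 5 in the cytosol at 0.5, 2 and 4 h, 9, 1 and 1 in ER against cytosol untreated and at 0.5 and 1 h, and 1 in the ratio change at 4 h. Leaving out 1 library gave 0 to 1 in the ER at 1, 2 and 4 h, 0 at 2 h in the cytosol and 0 to 1 in untreated ER against cytosol. The number tested and the share of all genes called under each of these settings are not given here. The counts therefore show that calls depend on the setting, and not how Rab genes stand beside all genes.

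Of 631 log2 values of Rab genes and of called genes of the other lists 545 kept direction and call, 55 lost and 24 gained a call, and 7 changed sign: Rab7 in the ER at 4 h under median centring (-0.088), Rab11a there when rescaled to reads (0.00564), and untreated ER against cytosol Rab35, Rab10 and Rab14 under centring (0.12, 0.20 and 0.0101) and Rab35 and Rab10 when rescaled (0.10 and 0.19). Without 1 library the 4 h ER change ran from -0.27 to 0.56 for Rab7, -0.37 to 0.21 for Rab11a and -0.23 to 0.89 for Rab1. The cytosol change of Rab3b at 4 h ran from -0.22 to 0.84, and the untreated ratio from -0.25 to 0.19 for Rab10 and -0.58 to 0.14 for Rab14. The causes were not tested, beyond the fewer samples and the scaling themselves. Depth limits the mRNA libraries, which held 0 to 136 Rab reads, and the ER footprints after Tg, where the shallowest library held 61.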

Other observations

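Rab39b, a Rab gene known mainly from neurons, had more mRNA reads in replicate 1 than in replicate 2 in both fractions. Replicate 1 listed it in all 10 mRNA libraries, at 50.5, 46.7, 24.1, 32.8 and 51.5 RPKM in the ER (untreated, then 0.5 to 4 h) and 31.6, 43.1, 59.7, 76.3 and 37.6 in the cytosol, on 45 and 79 reads in all. Replicate 2 had 2 reads in the ER and 7 in the cytosol. Summed over all times, the ER footprints held 15 Rab39b reads in replicate 1 and 0 in replicate 2, and the cytosol footprints 12 and 21. Rab8b mRNA had a like split, replicate 1 holding 40 reads in the ER and 62 in the cytosol, and replicate 2 holding 1 and 2. No test was made of these differences, which were seen after the values were examined.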
